A study of Mus musculus with 8 samples.

Results

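The class IIa histone deacetylases Hdac4, Hdac5, Hdac7 and Hdac9 and the MEF2 transcription factors Mef2a, Mef2b, Mef2c and Mef2d were examined in hippocampal RNA-sequencing data of young male mice. These 8 genes were chosen by name as a set when the difference between ketamine-injected and saline-injected mice was already known, and their rows were found by matching the Ensembl identifier of each row to its symbol in the GENCODE M21 annotation of GRCm38. Of the 8 genes, 7 stood among the 20802 genes of the table, and Mef2b was not analysed here. The set was thus selected on the fitted differences between the groups as well as on its known biology, and the group differences of these genes are a description that supports nothing.

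RNA came from the hippocampus of 8 male C57BL/6 mice, 1 library per mouse, with 4 mice per group. The Anesthesia group was given ketamine, an anesthetic that blocks NMDA-type glutamate receptors, by intraperitoneal injection at 35 mg per kg, once a day from PND16 to PND20, for 5 injections in all. Control mice had the same handling with saline according to the protocol, although the sample titles call them untreated. No mouse carried a named allele or transgene, the labels give the age of both groups as PND28, and the study's methods place the RNA extraction at 1 week after the last injection. The whole hippocampus was used, so that fewer cells of a type and less RNA per cell cannot be told apart.

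Class IIa histone deacetylases have little deacetylase activity of their own. They bind MEF2 factors on DNA and hold their target genes silent together with the NCoR and SMRT corepressors, which bring in the active enzyme Hdac3. When calcium enters a neuron, kinases of the CaMK, PKD and SIK families phosphorylate the class IIa enzymes, 14-3-3 proteins bind them and they leave the nucleus, while the phosphatase calcineurin dephosphorylates MEF2. MEF2 factors are known in the hippocampus for tying neuronal activity to the number of excitatory synapses. These steps act on the proteins, and only RNA was measured here.

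The values are counts normalized by the authors, with totals between 18702634 and 19231119 per mouse. All markers fixed for CA1 pyramidal neurons (5 of 5) and dentate granule neurons (5 of 5) were present. The summed level of 12 choroid plexus markers was 58474 normalized counts in Anesthesia mouse 1 and 27288 to 68055 in Control mice 2, 3 and 4, but 766 to 3728 in the remaining 4 mice. Anesthesia mouse 3 stood apart from the others in another way. A list of neocortical layer genes, added after the data were seen, summed to 5177 normalized counts in it and to 1873 to 3576 in the other mice, with 6 of its 8 measured genes highest in that mouse. The dentate granule list was lowest there, at 3115 against 3377 to 7238, but Control mouse 4 was close, at 3377. Of the 10 CA1 pyramidal and dentate granule markers, 6 were lowest in Anesthesia mouse 3. The CA1 pyramidal sum was not lowest there, at 5596 against 5586 to 7030 in the other mice. The CA1 marker Mpped1 was highest in that mouse, at 2795. Differences that moved by more than 1.5 times or changed sign without Anesthesia mouse 3 are therefore given with and without it.

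Hdac4, Hdac5 and Hdac7 were higher in each Anesthesia mouse than in each Control mouse, by 1.23, 1.24 and 1.31 fold. Hdac9 and the MEF2 factors Mef2a, Mef2c and Mef2d overlapped between the groups. Values of groups that did not overlap in the upward direction were thus found in 3 of 7 measured members, beside 2.81% of the 18865 genes tested, and in the downward direction in 0 of 7, beside 2.23%. The fitted difference was above 0 in 6 of the 7 members, beside 49.2% of all genes. Without Anesthesia mouse 3 the same 3 members lay above the Control mice throughout, beside 3.81% of all genes. This was fixed beforehand, since leaving out a mouse cannot make separate groups overlap. In that fit 6 members had a difference above 0, beside 49.7%, but not the same 6. Hdac9 was then at -0.10 and Mef2a at 0.004, in place of 0.02 and -0.01 with all mice.

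**Figure D1:**
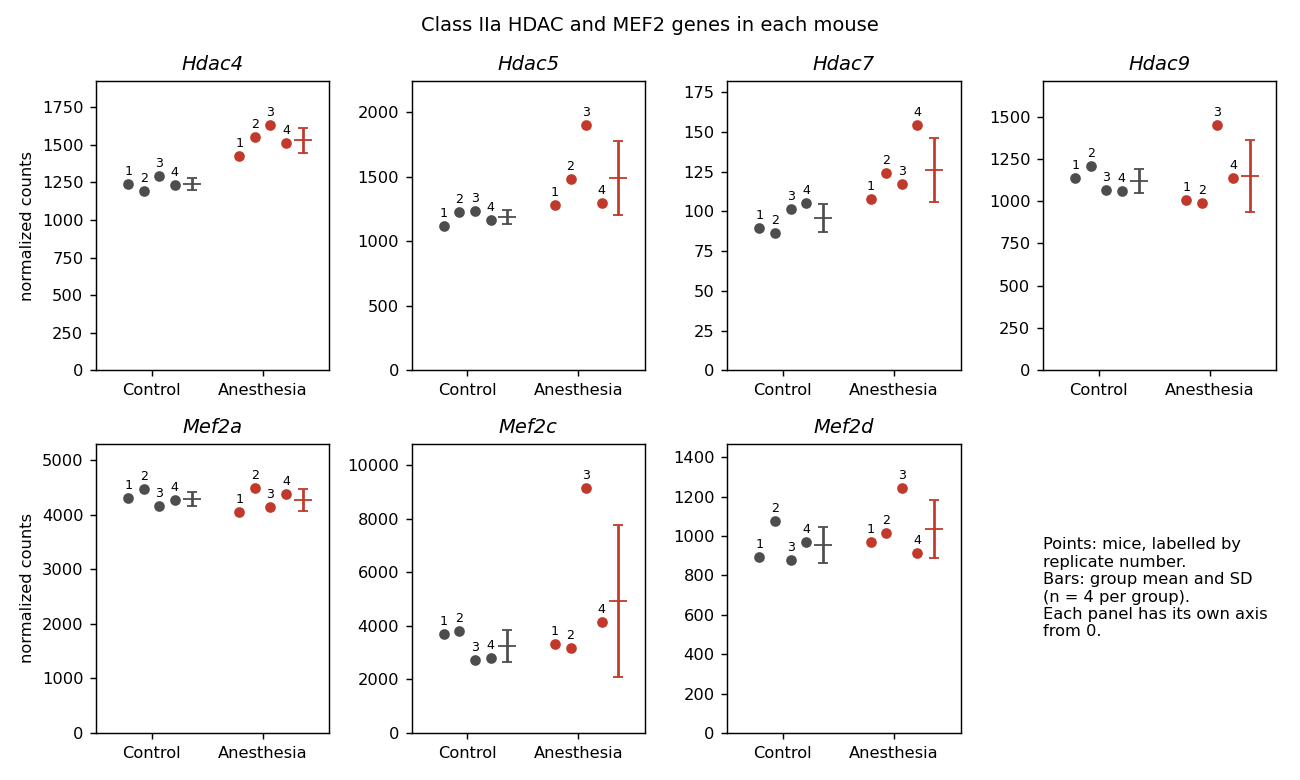
Normalized counts of the 7 measured genes (y axes, linear and starting at 0) in the 4 Control and 4 Anesthesia mice (points, numbered by replicate), with the group mean and SD (bars, n = 4). In the panels of Hdac4, Hdac5 and Hdac7 all 4 Anesthesia mice lie above all Control mice, and Anesthesia mouse 3 lies far above the other mice for Mef2c, at 9155.

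Hdac4 (ENSMUSG00000026313, minus strand of chromosome 1, 91928779 to 92195699 in GRCm38) is the class IIa enzyme best known in the brain for holding synaptic genes silent while it is in the nucleus. Its level was 1427, 1549, 1631 and 1513 normalized counts in Anesthesia mice 1 to 4 and 1239, 1194, 1291 and 1230 in Control mice 1 to 4. The lowest Anesthesia mouse lay above the highest Control mouse, and the spread within each group was narrow, so that the means were 1530 ± 84.7 and 1238 ± 40.1 (SD, n = 4 each). The log2 fold change, on the log2(value + 1) scale used throughout, was 0.30 with a 95% confidence interval of 0.17 to 0.44. Without Anesthesia mouse 3 it was 0.27. Hdac4 had the largest distance from 0 relative to its error among the members. Its unadjusted p was number 15 in rank among all genes tested, with an adjusted p of 0.565 in limma's test. The set was chosen with these differences known, so this rank is a description. Hdac4 shares 3536 of its 15813 exon bases with Gm26720, a lincRNA on the opposite strand that was not analysed here, and whether the quantification used strand was not stated.

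Hdac5 (ENSMUSG00000008855, minus strand of chromosome 11, 102194432 to 102230166) is a close relative of Hdac4 whose removal from the nucleus in neurons follows synaptic activity. The Anesthesia mice had 1281, 1479, 1899 and 1297 normalized counts and the Control mice 1117, 1225, 1236 and 1163. Every Anesthesia mouse was above every Control mouse, but Anesthesia mouse 3 was well above the remaining Anesthesia mice and widened that group, with means of 1489 ± 288 and 1185 ± 55.9 (SD, n = 4 each). The log2 fold change was 0.31 (95% confidence interval 0.06 to 0.57), and it was 0.19 (0.03 to 0.35) without that mouse. With the choroid plexus level as a covariate it was 0.24 with an interval that included 0 (-0.04 to 0.52).

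Hdac7 (ENSMUSG00000022475, minus strand of chromosome 15, 97792664 to 97844502) is a class IIa enzyme known best from blood vessels and developing T cells, and it was the scarcest member. Levels were 107.9, 124.1, 117.5 and 154.4 normalized counts in the Anesthesia mice and 89.8, 86.7, 101.3 and 105.1 in the Control mice. The groups did not overlap, although the gap between Anesthesia mouse 1 and Control mouse 4 was small beside the spread within the groups, whose means were 126.0 ± 20.1 and 95.7 ± 8.85 (SD, n = 4 each). Anesthesia mouse 4, not mouse 3, was the highest. The log2 fold change was 0.38 (95% confidence interval 0.07 to 0.70), and 0.41 without Anesthesia mouse 3. The summed level of 10 endothelial markers ran from 4706 to 6008 in the Anesthesia group and from 4674 to 5833 in the Control group. Anesthesia mouse 4 was the lowest of its group at 4706, and none of these markers was at 0. The sum of 10 oligodendrocyte markers was 126520, 130941, 116263 and 199088 in Anesthesia mice 1 to 4. In Control mice 1 to 4 it was 104433, 132914, 189206 and 172115. The part of tissue composition in the Hdac7 levels was not tested.

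When every library was corrected for transcript length and GC content, the Anesthesia mice were still above all Control mice only for Hdac4, 1 of the 7 members, beside 2.23% of all genes in that setting. For Hdac5 the lowest Anesthesia mouse was then at 10.29 and the highest Control mouse at 10.30 on the log2 scale, and for Hdac7 the same values were 6.71 and 6.73. The log2 fold change of Hdac7 was then 0.275 with a 95% confidence interval that included 0 (-0.04 to 0.59). Inside the 4 mice with high choroid plexus RNA (1 Anesthesia, 3 Control) the log2 ratio of Anesthesia to Control means was 0.20 for Hdac4, 0.08 for Hdac5 and 0.14 for Hdac7, and inside the 4 mice with little of it (3 Anesthesia, 1 Control) it was 0.34, 0.48 and 0.56. Each set holds a group with 1 mouse, and the cut between the sets was chosen after the data were seen. Because the groups of these genes did not overlap over all mice, the signs inside the sets were fixed beforehand, and only the sizes are informative.

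The promoters of Hdac4 and Hdac5 are shown because these were the more abundant of the genes whose groups did not overlap. Each is the 250 bases before the RefSeq start in GRCm38.p6, written 5′ to 3′ along the gene. Capitals mark the MEF2 consensus, the CRE core TGACG bound by CREB-type factors and the GC box GGGCGG bound by Sp1-type factors, each searched on both strands. The Hdac4 window lies at chr1:92180342-92180591 on the minus strand and the Hdac5 window at chr11:102230173-102230422 on the minus strand. The Hdac4 window is inside the gene as GENCODE M21 gives it, whose outermost start is at 92195699.
Hdac4: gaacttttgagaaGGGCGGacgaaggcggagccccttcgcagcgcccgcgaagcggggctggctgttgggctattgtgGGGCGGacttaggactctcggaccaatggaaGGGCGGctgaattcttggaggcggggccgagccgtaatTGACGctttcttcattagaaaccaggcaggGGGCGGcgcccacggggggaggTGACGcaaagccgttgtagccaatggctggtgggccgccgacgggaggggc
Hdac5: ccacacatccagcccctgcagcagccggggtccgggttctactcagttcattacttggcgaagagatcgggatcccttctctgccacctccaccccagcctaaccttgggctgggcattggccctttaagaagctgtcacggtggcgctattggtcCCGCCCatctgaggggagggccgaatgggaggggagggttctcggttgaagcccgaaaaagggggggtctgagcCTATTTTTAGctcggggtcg
The Hdac4 window was 65.2% GC with 23 CpG, against medians of 52.4% and 6 in all 32851 RefSeq windows of this length. It held 4 GC boxes, a motif that 32.7% of all windows have, and 2 CRE cores, a motif of 17.8%. In the Hdac5 window a MEF2 consensus stood 20 bases before the start. This motif occurs in 1.69% of all windows, and the Hdac5 window was the only one among the 14 windows of the 8 named genes to hold it. A match in these letters is a description and not a binding site.

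Hdac9 (ENSMUSG00000004698, minus strand of chromosome 12, 34047580 to 34917095), which also gives rise to a short form that lacks the deacetylase domain, overlapped between the groups. It had 1008, 991.9, 1450 and 1140 normalized counts in the Anesthesia mice and 1138, 1208, 1067 and 1060 in the Control mice. Anesthesia mouse 3 was the highest of all and mice 1 and 2 of the same group were the lowest of all. The means were 1148 ± 212 and 1118 ± 69.3 (SD, n = 4 each), and the log2 fold change was 0.02 (95% confidence interval -0.23 to 0.27) with all mice and -0.10 without Anesthesia mouse 3. The sign of this difference was not stable, since it was also below 0, at -0.003 or nearer, without Control mouse 3 or 4.

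**Figure D2:**
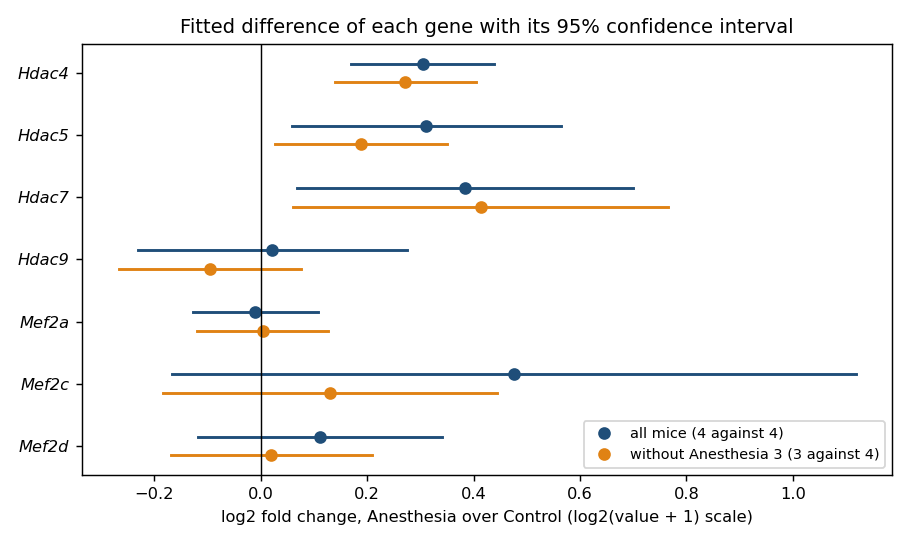
Fitted log2 fold change of Anesthesia over Control for each measured gene (x axis, log2(value + 1) scale), with its 95% confidence interval, from all 8 mice (blue) and without Anesthesia mouse 3 (orange). Hdac4, Hdac5 and Hdac7 keep intervals above 0 in both fits, while Mef2c moves from 0.48 to 0.13 and Hdac9 from 0.02 to -0.10.

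Mef2c (ENSMUSG00000005583, plus strand of chromosome 13, 83504034 to 83667080) limits excitatory synapse number in hippocampal neurons and is also used by microglia, cortical neurons and vessels. In the Anesthesia group it had 3322, 3154, 9155 and 4134 normalized counts, and Control mice had 3684, 3814, 2709 and 2786. Anesthesia mouse 3 was 2.59 times the mean of the other Anesthesia mice, and the remaining 7 mice lay between 2709 and 4134 with the groups mixed. Group means were 4941 ± 2841 and 3248 ± 582 (SD, n = 4 each), and 3537 ± 524 (n = 3) for the Anesthesia group without mouse 3. The log2 fold change of 0.48 (95% confidence interval -0.17 to 1.12) fell to 0.13 (-0.18 to 0.44) without that mouse, and was 0.18 with the neocortical layer list as a covariate and 0.20 with the choroid plexus list.

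Anesthesia mouse 3 was the highest of the 8 mice for 5 of the 7 measured members, beside 20.3% of all genes. Those 5 were Hdac4, Hdac5, Hdac9, Mef2c and Mef2d. Its neocortical layer sum, relative to the Control mean on the log2 scale, was 1.04, beside 1.51 for Mef2c, 0.68 for Hdac5, 0.40 for Hdac4, 0.39 for Mef2d and 0.38 for Hdac9. The microglial sum of that mouse was 7112 normalized counts, inside the Control range of 6270 to 7376, and its endothelial sum of 6008 was above the Control range of 4674 to 5833. The part of tissue composition in the levels of this mouse was not tested.

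**Figure D3:**
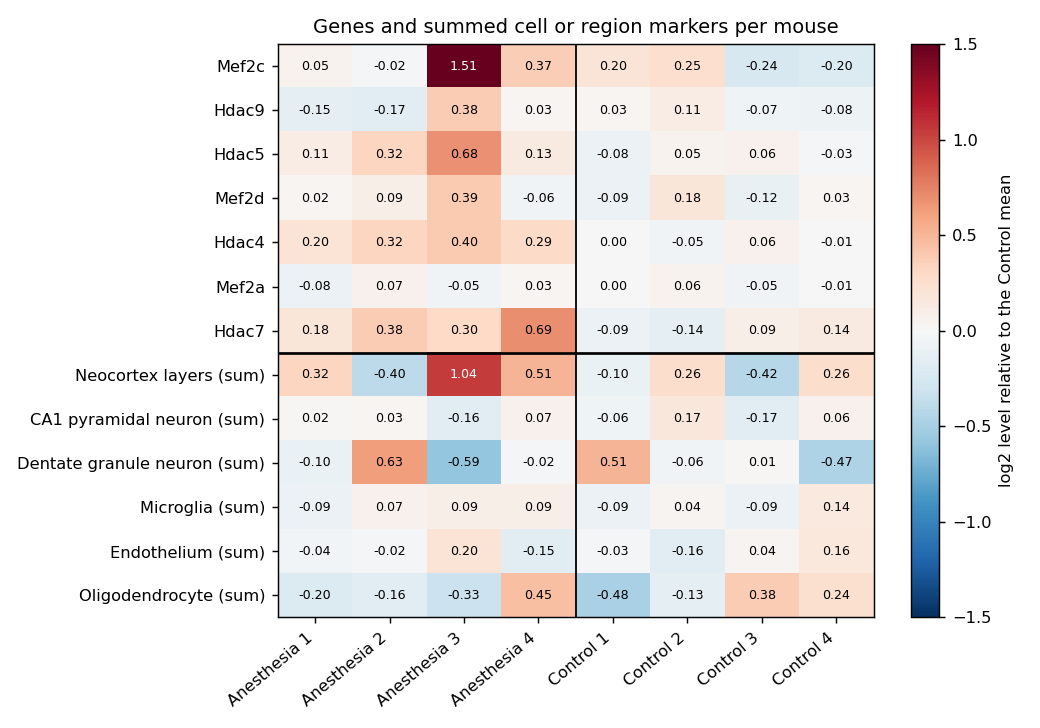
Log2 level of each gene (upper 7 rows) and of the summed markers of each cell type or region (lower rows) relative to the Control mean, in each of the 8 mice (columns). The column of Anesthesia mouse 3 holds the highest values of Mef2c (1.51), Hdac9 (0.38) and the neocortical layer sum (1.04) and the lowest of the dentate granule sum (-0.59).

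Mef2a (ENSMUSG00000030557, minus strand of chromosome 7, 67231163 to 67372858), a widely expressed factor of the family in adult neurons, varied least between mice, with a coefficient of variation of 2.96% in the Control and 4.79% in the Anesthesia group. Its level was 4052, 4494, 4148 and 4384 normalized counts in the Anesthesia mice and 4299, 4464, 4156 and 4267 in the Control mice. The groups overlapped nearly completely, with means of 4269 ± 204 and 4296 ± 127 (SD, n = 4 each). The log2 fold change was -0.01 with a 95% confidence interval of -0.13 to 0.11, and 0.004 without Anesthesia mouse 3. The size of the difference in Hdac4 lies outside that interval, but Mef2a was not tested against Hdac4. Both were chosen with the group differences known.

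Mef2d (ENSMUSG00000001419, plus strand of chromosome 3, 88142372 to 88172086), a factor linked to neuronal survival, had 968.0, 1015, 1245 and 915.6 normalized counts in the Anesthesia mice and 894.2, 1078, 878.2 and 970.5 in the Control group. Anesthesia mouse 3 was again the highest, and Control mouse 2 lay above the other 3 Anesthesia mice. The means were 1036 ± 145 and 955.3 ± 91.4 (SD, n = 4 each), and the log2 fold change was 0.11 (95% confidence interval -0.12 to 0.34), or 0.02 without mouse 3. Mef2d shares 531 exon bases with 1700113A16Rik on the opposite strand, which stood at 7.33 to 29.9 normalized counts and overlapped between the groups.

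The median log2 fold change was 0.31 over the 4 class IIa genes and 0.11 over the 3 MEF2 genes, beside -0.004 over all genes tested. Without Anesthesia mouse 3 these medians were 0.23 and 0.02. In limma's test across all genes, 0 of the 7 members had a Benjamini-Hochberg adjusted p under 0.05, beside 0.0% of the 18865 genes. The adjusted p of the members in this test lay between 0.565 and 0.967. The study's own test, DESeq2, did report genes with an adjusted p under 0.05. The 0.0% therefore describes the limma fit of the normalized values and not the study's result. At an unadjusted p under 0.05 there were 3 members, Hdac4, Hdac5 and Hdac7, beside 4.75% of all genes higher and 3.27% lower in the Anesthesia group. With limma voom, the other tool run, there were also 0 members past the adjusted and 3 past the unadjusted threshold.

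Levels of different members were compared over all 8 mice together. Per kilobase of the median annotated transcript, the mean normalized counts over the 8 mice were 3456 for Mef2c, 1813 for Hdac5, 1604 for Mef2a, 1549 for Hdac4, 563 for Mef2d, 361 for Hdac9 and 28.4 for Hdac7. Of the 6 pairs of neighbours in this order, 4 differed (adjusted p = 0.0117 each, two-sided exact permutation test over 8 mice, in which the smallest p before adjustment was 0.00781). Hdac5 and Mef2a (adjusted p = 0.113) and Mef2a and Hdac4 (adjusted p = 0.406) did not pass in the same exact test. With the median length the order in these pairs depended on the group. Hdac4 was above Mef2a in 4 of 4 Anesthesia mice and below it in 4 of 4 Control mice. The mean log2 difference of Mef2a minus Hdac4 was -0.10 in the Anesthesia and 0.22 in the Control group. Hdac5 was above Mef2a in 4 of 4 Anesthesia but 1 of 4 Control mice. Over all mice these opposite orders offset each other, and since the group differences took part in choosing the genes, the dependence on the group is a description. The other 4 pairs had the same order in each mouse. Per kilobase of the longest transcript the order began with Mef2a at 773 and Mef2c at 652. Hdac5 at 247, Mef2d at 184, Hdac4 at 171, Hdac9 at 143 and Hdac7 at 21.4 followed. Of these neighbours 4 of 6 differed, but not the same pairs. Mef2c and Hdac5, and Hdac9 and Hdac7, were neighbours that passed with both lengths. Hdac4 was above Mef2d in 8 of 8 mice with the median length. With the longest, Mef2d was above Hdac4 in 6 of 8 mice, by a mean log2 difference of 0.11 (adjusted p = 0.125, same exact test). Mef2a, at 732 to 811 with the longest length, was above Hdac4 (147 to 201) and Hdac5 (207 to 351) in each mouse. The dependence of their order on the group was thus absent with that length. The neighbours were set by the order in these same data. Hdac7 was the lowest member and Hdac9 the next with both lengths, whereas the places of the other 5 depended on the length used.

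Variation between mice inside the groups does not use the contrast between them. Across 21 pairs of members, the deviations of log2(value + 1) from the group means were compared over 8 mice, and 0 pairs had an adjusted p under 0.05 in the exact permutation test within groups, with 2 pairs at an unadjusted p under 0.05. Hdac9 and Mef2c gave the closest relation, with Pearson's r = 0.99 (exact permutation p = 0.00347, adjusted p = 0.0729) and Spearman's rho = 0.98 (exact permutation p = 0.00694, adjusted p = 0.146). In Control mice 1 and 2 and Anesthesia mouse 3 both genes were above their group means, and in Control mice 3 and 4 and Anesthesia mice 1 and 2 both were below, while Anesthesia mouse 4 lay near both means. Without Anesthesia mice 2 and 3, the farthest from the median, r was 0.93, and with the choroid plexus level removed it was 0.98. It was not computed with the neocortical layer level removed, which was highest in Anesthesia mouse 3. With that level as a covariate, the SE of the log2 fold change was 0.176 in place of 0.29 for Mef2c. For Hdac9 it was 0.081 in place of 0.114. The part of tissue composition in this relation was not tested. The other pair at an unadjusted p under 0.05 was Hdac5 and Mef2d (r = 0.82, exact permutation p = 0.0417, adjusted p = 0.423), with r = 0.43 without Anesthesia mouse 3. For Hdac4 and Hdac5 r was 0.77 (exact permutation p = 0.0833, adjusted p = 0.423) and 0.52 without that mouse. Of the 7 pairs with r above 0.7, 1 remained above it when Anesthesia mouse 3 was left out, that of Hdac9 and Mef2c.

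**Figure D4:**
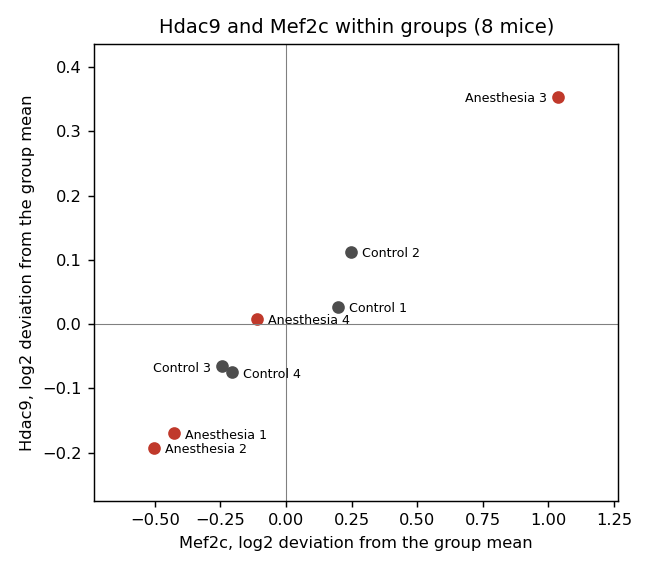
Deviation of Hdac9 (y axis) from its group mean against that of Mef2c (x axis), both on the log2(value + 1) scale, in the 4 Anesthesia (red) and 4 Control (grey) mice. The points follow a rising line from Anesthesia mouse 2 (-0.50 for Mef2c, -0.19 for Hdac9) to Anesthesia mouse 3 (1.04 and 0.35), and the Control mice lie on it between them.

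The promoters of Hdac9 and Mef2c are shown because these genes varied most closely together. Both windows are at the outermost RefSeq start of a gene with several starts, at chr12:34917096-34917345 on the minus strand for Hdac9 and at chr13:83503784-83504033 on the plus strand for Mef2c (GRCm38.p6), and neither holds any of the 3 motifs marked above, so that no letter is in capitals.
Hdac9: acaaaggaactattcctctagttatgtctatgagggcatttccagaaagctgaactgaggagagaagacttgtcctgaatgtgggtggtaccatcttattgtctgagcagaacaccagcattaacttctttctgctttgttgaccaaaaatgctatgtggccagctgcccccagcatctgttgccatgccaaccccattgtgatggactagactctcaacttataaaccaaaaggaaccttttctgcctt
Mef2c: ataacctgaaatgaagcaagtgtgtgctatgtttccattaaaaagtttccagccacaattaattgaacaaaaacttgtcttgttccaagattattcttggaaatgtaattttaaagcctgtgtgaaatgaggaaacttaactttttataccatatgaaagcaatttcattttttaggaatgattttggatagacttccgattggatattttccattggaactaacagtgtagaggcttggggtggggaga
These windows were poor in GC, at 44.4% and 33.6%, and held 0 and 1 CpG, against the median of 6. Each held the TATA box TATAAA on one of its strands, 29 bases before the start in Hdac9 and 107 in Mef2c, a motif of 12.4% of all windows. Those of Hdac4 and Hdac5 did not hold it.

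The genes whose deviations were most like those of Hdac4, among 12249 genes with a mean of at least 100, were Tnrc6b (r = 0.968 over 8 mice), which acts in microRNA silencing, 4930447C04Rik (0.959) and Nol4l (0.955). For Mef2c they were Ubn1 (0.992), a subunit of the HIRA histone chaperone complex, Smarcd1 (0.988), a subunit of the BAF chromatin remodeler, and Evl (0.987), an actin regulator. These were the highest values among many genes and are given as a description. Anesthesia mouse 3 was the highest for all 6, at 1512 normalized counts of Ubn1 against 1072 to 1231 in the other mice.

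Partners of the class IIa enzymes were mostly near 0. The 7 other zinc-dependent histone deacetylases had 3 genes above and 4 below 0 and a median log2 fold change of -0.004. Hdac3, the active enzyme of the corepressor complex, was at 1306 ± 64.4 normalized counts in Anesthesia mice and 1382 ± 75.5 in Control mice (SD, n = 4 each), with a log2 fold change of -0.08 ± 0.06 (SE). Hdac2 was at -0.075 ± 0.092, and at 0.01 without Anesthesia mouse 3, and Hdac8 at 0.09 ± 0.09. In the NCoR and SMRT complex, a list that holds Hdac3 again, 3 of 6 genes were above 0, with Ncor1 at 0.08 ± 0.06 and Gps2 at 0.25 ± 0.15. None of these genes had an unadjusted p under 0.05 in limma's test.

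**Figure D5:**
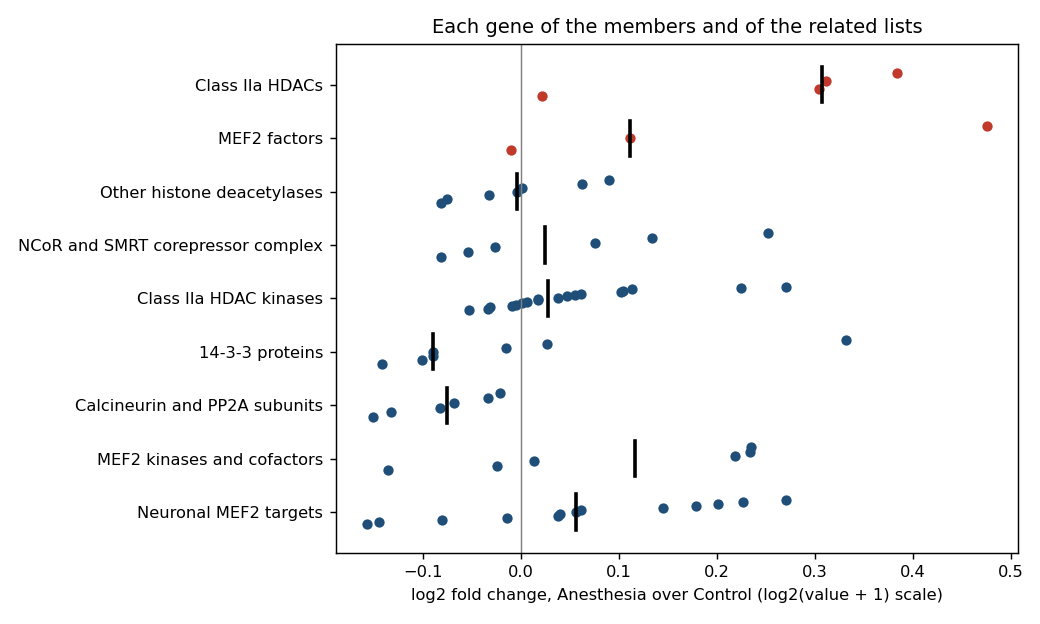
Fitted log2 fold change of Anesthesia over Control (x axis, log2(value + 1) scale) for each measured gene of the class IIa HDACs and MEF2 factors (red) and of 7 related lists (blue), with the median of each list as a black bar. The medians were 0.31 and 0.11 for the red lists and between -0.09 and 0.12 for the blue ones.

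Kinases that send class IIa enzymes out of the nucleus were above 0 in 13 of 18 genes, with a median of 0.03 and 0 genes at an unadjusted p under 0.05. Camkk2, which activates CaMKI and CaMKIV, was at 0.27 ± 0.14 (SE) and Camk2g at 0.225 ± 0.116, and Anesthesia mouse 3 was the highest for both, with 4326 and 4012 normalized counts against 2493 to 3130 and 2395 to 2951 in the other mice. Without that mouse both were at 0.10. Sik2 was at 0.11 ± 0.12. Of the 14-3-3 genes 5 of 7 were below 0, and Ywhae was lower in each Anesthesia mouse (2995 to 3120 normalized counts) than in each Control mouse (3156 to 3423), 1 of 7 genes beside 2.23% of all genes. Its log2 fold change was -0.09 ± 0.05, like that of Ywhaz, and Ywhaq was at -0.141 ± 0.075, or -0.068 without Anesthesia mouse 3. The 6 calcineurin and PP2A subunits were all below 0 with a median of -0.075, but without Anesthesia mouse 3 the median was -0.031 and 1 of the 6, Ppp2cb, was above 0 at 0.017. Ppp3r1, the regulatory subunit of calcineurin, was at -0.132 ± 0.065, Ppp2r1a at -0.082 ± 0.045 and Ppp2ca at -0.068 ± 0.055 (-0.024 without that mouse), none with an unadjusted p under 0.05 in limma's test.

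The acetyltransferases that MEF2 recruits when it is active had mean levels above those of the Control group. Crebbp had 2332, 2572, 2692 and 2588 normalized counts in the Anesthesia mice and 2150, 2314, 2059 and 2133 in the Control mice. The lowest Anesthesia mouse was above the highest Control mouse, which held for 1 of 6 genes of its list beside 2.81% of all genes, and the log2 fold change was 0.23 ± 0.06 (SE), with an adjusted p of 0.568 in limma's test. Its relative Ep300 was at 0.22 ± 0.07 (adjusted p = 0.619 in limma's test) and Cabin1, which holds MEF2 silent until calcium rises, at 0.235 ± 0.095 (adjusted p = 0.62). These were the 3 of 6 genes of MEF2 kinases and cofactors with an unadjusted p under 0.05, beside 4.75% of all genes higher and 3.27% lower at that p. Without Anesthesia mouse 3 they were at 0.21 for Crebbp, 0.19 for Ep300 and 0.19 for Cabin1, and the unadjusted p of Cabin1 was 0.0816 in limma's test.

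Among 13 genes listed as neuronal MEF2 targets, 9 were above and 4 below 0, with a median log2 fold change of 0.06, and 0 had an adjusted p under 0.05. Kcna1, which encodes an axonal potassium channel, was at 2284 ± 190 normalized counts in Anesthesia mice and 1950 ± 119 in Control mice (SD, n = 4 each), and its log2 fold change was 0.23 ± 0.07 (SE, adjusted p = 0.62 in limma's test). Pcdh17, a protocadherin, was at 0.145 ± 0.072. The unadjusted p was under 0.05 for Kcna1, and the groups overlapped for all 13 genes. Arc, an activity-induced synaptic gene, was at 0.06 ± 0.23 and Bdnf, the neurotrophin, at -0.16 ± 0.18, or -0.01 without Anesthesia mouse 3. These last 2 genes were picked after their values were seen, as widely known targets.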

How the data were processed

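Hippocampal RNA of 8 male mice was sequenced (4 Anesthesia, 4 Control), and GEO's labels set the groups. According to the study's methods, the authors estimated transcript abundance with Salmon version 1.1.0 on GRCm38, with its correction for GC bias. Genes were then summarised by tximport in R version 3.5.3, and the authors divided the counts by size factors in DESeq2 version 1.30.1. The deposited values are therefore a normalized signal (normalized counts) and not read counts, their totals no longer show sequencing depth, and depth per mouse is unknown. Only 38.6% to 62.0% of low values lay within 0.1 of whole reads, so that no count model was fitted. The labels and the methods name different TruSeq kits, and only that of the methods is stranded. The annotation release used is not given in the sources used here.

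Values were compared with limma version 3.58.1 in R version 4.3.3 after a log2(value + 1) transformation, fitting a mean-variance trend over 18865 genes with a mean of at least 10, which left out 1937. This scale understates the change of low genes. The p-values of limma were adjusted over all genes tested (threshold 0.05) and set the group difference against the spread between mice. Levels per length and covariation used exact permutation tests with SciPy version 1.17.1. Their p-values were adjusted over the 6 pairs of neighbours and the 21 pairs of members. Transcript lengths and GC content came from GENCODE M21, which named 20784 of the identifiers and lacked 18, and promoters from RefSeq (GRCm38.p6). Libraries differed by an SD of 0.45 to 0.67 in log2 ratio, so none was listed more than once.

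The members and lists were chosen with earlier results of these data known. Genes named are the 8 members, up to 3 genes per related list with the smallest unadjusted p, Hdac3, and the 3 genes most like Hdac4 and Mef2c. A gene that meets this rule is not reported here. Neocortical layer genes, that covariate and the alternatives to the count of groups that do not overlap were added after the data were seen. Alternatives covered the model, scaling, filter, pseudocount, GC content and length, choroid plexus covariate, replicate block and each mouse left out. Scripts were tested on simulated data.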

Additional observations from a re-analysis of the deposited data

Results flagged for a closer look

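In 74 groups of 4 mice, 4 held a mouse set far apart from the other 3 by Dixon's 95% limit, where chance alone gives about 3.7. Mef2c was at 9155 normalized counts in Anesthesia mouse 3, against 3154 to 4134 in the other Anesthesia mice, a gap of 0.837 of the group's range. Camk2g, a CaMKII subunit, was at 4012 in the same mouse, against 2770 to 2951 (gap 0.854). The microglial marker sum was 6298 in Anesthesia mouse 1, against 7002 to 7112 (gap 0.865). The choroid plexus marker sum was 58474 in Anesthesia mouse 1, against 766 to 3728 (gap 0.949).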

How the results depend on the processing

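Over the settings set in advance, 213 values kept their direction and side of the threshold, 8 reversed and 1 moved. Fold changes and their medians could not reverse with another filter or the replicate block, since these leave them as they are. For the order of member levels only the number of neighbouring pairs that differed was scored. It was 4 with either transcript length, although the order itself changed with the length. Of those added later, 20 stayed, 2 reversed and 1 moved. Among the 20 were counts of members whose groups did not overlap. These counts could not fall when a mouse was left out or with another pseudocount. All reversals were in Hdac9 and Mef2a, whose intervals include 0. Hdac9 was at -0.065 with the choroid plexus covariate, at -0.082 with the neocortical layer covariate and between -0.096 and 0.086 with each mouse left out. Mef2a was at 0.001 with upper quartile scaling, at 0.005 with the neocortical layer covariate and between -0.035 and 0.015 with each mouse left out. Genes past the adjusted threshold numbered 0 to 2 with each mouse left out (2 without Control mouse 1) and 0 elsewhere. Members whose groups did not overlap numbered 1 in place of 3 after the GC content and length correction. The causes were not tested.

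Replicate numbers did not pair the mice: deviations of same-numbered mice correlated at -0.242, -0.109, -0.182 and 0.019. With the replicate block, 0 genes and 0 members passed the adjusted threshold, and 1084 genes in place of 1513 had an unadjusted p under 0.05, 3 members among them.

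Members at an unadjusted p under 0.05 numbered 3, but 2 with the GC content and length correction (also with the replicate block), with the choroid plexus covariate and without Anesthesia mouse 4 or Control mouse 2, and 1 without Control mouse 1. Of the genes under that p, 59.3% were higher in the Anesthesia group, a share that ran from 51.2% with library total scaling to 65.5% with upper quartile scaling. Sequencing depth is unknown, so that no counting error could be given for Hdac7, the scarcest member.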

Other observations

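Several unnamed or non-coding genes lie inside introns of the measured members and overlapped between the groups. Gm37048 and Gm37036, in introns of Hdac4, had log2 fold changes of 0.23 ± 0.18 and -0.01 ± 0.20 (SE). Gm47357, in an intron of Hdac9, was at 0.15 ± 0.19, and Gm44667 and Gm44668, in introns of Mef2a, were at 0.00 ± 0.10 and 0.27 ± 0.20. Without Anesthesia mouse 3, Gm37036 was at -0.08, Gm47357 at 0.04, Gm44667 at 0.01 and Gm44668 at 0.165. Anesthesia mouse 2, the lowest mouse for Hdac9, was the highest for Gm47357, with 215.0 normalized counts against 128 to 212 in the other mice. Anesthesia mouse 3, the highest for Hdac9, was next at 212.3. Anesthesia mouse 1, the next lowest for Hdac9, was the lowest for Gm47357 at 128.2. These genes were listed after the data were seen.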
